A study of Bos taurus with 81 samples.

Results

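The comparison set the open chromatin of whole bovine blastocysts against that of the inner cell mass (ICM) and the trophectoderm (TE) isolated from blastocysts, the pair of lineages into which the blastocyst divides. Open chromatin was measured by ATAC-seq, in which a transposase cuts and tags accessible DNA. All 3 ATAC libraries of whole blastocysts (BL), 3 of ICM and 3 of TE were used, which makes 9 of the 81 libraries of the series; the rest are CUT&Tag libraries of histone marks, of which the 32 from morulae (MO), BL, ICM and TE were read at the sites described here. In CUT&Tag an antibody brings the transposase to a histone mark, here H3K4me3, H3K27ac, H3K27me3 or H3K9me3, with 2 libraries for each mark and stage. All groups were control embryos produced in vitro from slaughterhouse oocytes, and the zona pellucida was removed with pronase. Whole blastocysts were taken at 172 h post-insemination, while the labels give no time for the ICM and TE libraries. The ICM was obtained by immunosurgery, in which antibody and complement destroy the outer cells, and the TE by cutting with a scalpel under the microscope. About 1000 to 1500 blastomeres went into a library, pooled over embryos, and nothing in the labels says that replicates came from separate cultures, so the p-values measure only the spread between these libraries, which may be technical.

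The ICM gives rise to the fetus and the hypoblast that lines the yolk sac, and the TE to the fetal part of the placenta. Accessible sites shared by cell types are often promoters, whereas sites open in a single cell type are more often enhancers, and active enhancers commonly carry H3K27ac. H3K4me3 is a mark of active or poised promoters, H3K27me3 of Polycomb repression and H3K9me3 of heterochromatin. Whole blastocysts hold both lineages, so a list of their open sites is a mixture, in which a site open in a single lineage is carried by only a share of the cells. In such bulk libraries fewer cells of a type and less signal per cell cannot be told apart.

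Sites were defined from the authors' peak lists, 1 per library, on the 29 autosomes of the ARS-UCD1.2 cattle genome. A stretch is an unbroken run of 50 bp windows of a single class. ICM-only stretches lay under peaks in all 3 ICM lists and in no TE list, TE-only stretches the reverse, and common stretches lay under peaks in all 6 lineage lists. There were 62754 common stretches covering 38.4 Mb with a median length of 450 bp. ICM-only stretches numbered 33777, covering 10.5 Mb with a median of 300 bp, and TE-only stretches numbered 33959, covering 10.3 Mb with a median of 250 bp. Of the windows in at least 1 lineage list, 23.8% were common, 6.49% ICM-only and 6.39% TE-only. A stretch was counted as found in a BL library when at least 50% of its bases lay under that library's peaks. The BL lists took no part in these classes, so their content at each class is a separate readout. The peaks could not be set beside ICM or TE marker genes, since gene positions in this genome build were not used here.

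The whole-blastocyst lists were neither clearly longer nor clearly shorter than those of the isolated lineages. The BL lists held 122323, 123806 and 150417 autosomal peaks covering 80.8, 103 and 117 Mb. The ICM lists covered 82.0, 96.2 and 80.9 Mb, and the TE lists 83.4, 97.5 and 82.9 Mb. BL replicate 1 was the shortest of the 9 lists and the other two BL libraries were longer than all 6 lineage libraries, so the groups overlapped. The BL lists averaged 100.3 ± 18.1 Mb, those of the ICM 86.4 ± 8.54 Mb and those of the TE 87.9 ± 8.29 Mb (SD, n = 3 each). The difference of 0.19 on the log2 scale between BL and the 6 lineage libraries gave p = 0.214 in an exact two-sided permutation test whose smallest possible p is 0.0119. Without BL replicate 1 the difference was 0.34 and the exact permutation p was 0.0357, the smallest that this smaller comparison allows. The library left out was the only BL list shorter than those of the lineages. That outcome was thus fixed by the choice and is no separate support. The lists hold no library totals, so sequencing depth is unknown, and its part in list length was not tested.

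Nearly all open chromatin that the lineages share was present in whole blastocysts. Of the common stretches, 93.0% were found in all 3 BL lists, with 95.8%, 96.4% and 99.5% in BL replicates 1, 2 and 3. Only 0.137% of common stretches had no base under a peak of any BL library. As background, 2.54% of all autosomal windows, and 38.9% of the windows in at least 1 lineage list, lay under peaks in all 3 BL lists.

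Open chromatin of a single lineage was found far less completely, and to a similar degree for ICM and TE. Of the ICM-only stretches 35.5% were found in all 3 BL lists, against 33.0% of the TE-only stretches. The ICM-only shares were 53.5%, 55.2% and 71.4% in BL replicates 1, 2 and 3 (60.02% ± 9.85, SD, n = 3). The TE-only shares were 47.6%, 61.8% and 74.5% (61.3% ± 13.5, SD, n = 3). In each BL library both shares lay below that library's share of common stretches, and BL replicate 3, the longest list, was highest for every class. Without BL replicate 1, 48.4% of the ICM-only and 52.1% of the TE-only stretches were found in both remaining BL lists. BL peaks touched no base of 16.5% of the ICM-only and 10.7% of the TE-only stretches.

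**Figure D1:**
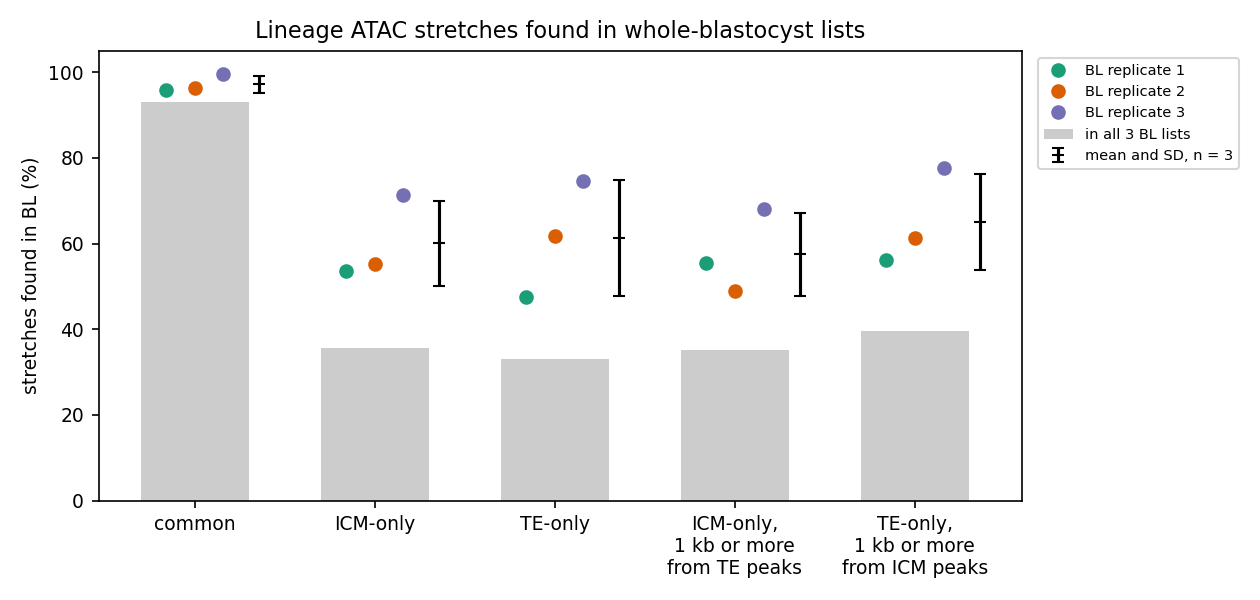
Share of stretches (%) found in the whole-blastocyst lists, for the 3 classes and for single-lineage stretches at least 1 kb from the other lineage's peaks. Grey bars give the share found in all 3 BL lists, coloured points each BL library, and black bars the mean and SD over the 3 libraries; the common class stands at 93.0%, and the ICM-only and TE-only bars lie between 33.0% and 39.5%.

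The libraries did not settle which lineage was better represented. The TE-only share exceeded the ICM-only share by -5.88, 6.61 and 3.19 percentage points in BL replicates 1, 2 and 3. BL replicate 1 thus went the opposite way from replicates 2 and 3. The mean difference of 1.31 points (SD 6.45, n = 3) gave p = 0.75 in an exact sign-flip permutation test, which with 3 libraries cannot go below 0.25. Leaving out any 1 ICM library put the mean between 9.15 and 9.43 points, and leaving out any 1 TE library put it between -9.79 and -8.01 points. Leaving out a library of either lineage loosens the rule of both classes, and the part of each in these shifts was not tested. With 1 ICM and 1 TE library left out together, so that both lineages kept 2 lists, it lay between -1.64 and 0.44 points. Taken library by library, 62.9%, 55.8% and 63.2% of the ICM libraries' covered length lay in all 3 BL lists, and 60.6%, 54.6% and 61.3% of the TE libraries'. Replicate 2 was lowest in both lineages and had the longest list. The lineage groups overlapped, although at each replicate number the TE library lay below the ICM library. TE minus ICM was -1.83 points with an exact two-sided permutation p of 0.5, where 0.1 is the smallest p of 3 against 3. With the lists shortened to a single length the difference was -0.94 points and the exact permutation p was 0.1, so all 3 ICM libraries then lay above all 3 TE libraries.

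Presence in whole blastocysts was higher the more lineage libraries held a site. Windows in no lineage list lay in all 3 BL lists in 0.0264% of cases. For windows in no ICM list the share was 2.65% with 1 TE list, 8.47% with 2 and 34.6% with 3. For windows in no TE list it was 3.65%, 11.6% and 35.7% with 1, 2 and 3 ICM lists. Adding a single list of the second lineage raised these shares: windows in all 3 ICM lists and 1 TE list were at 52.2%, and windows in all 3 TE lists and 1 ICM list at 47.9%. Windows in 2 ICM and 1 TE list, also 3 lists in all, were at 24.7%, and those in 1 ICM and 2 TE lists at 22.2%, both below windows in all 3 lists of a single lineage. The top corner, all 6 lists, was at 92.6%.

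**Figure D2:**
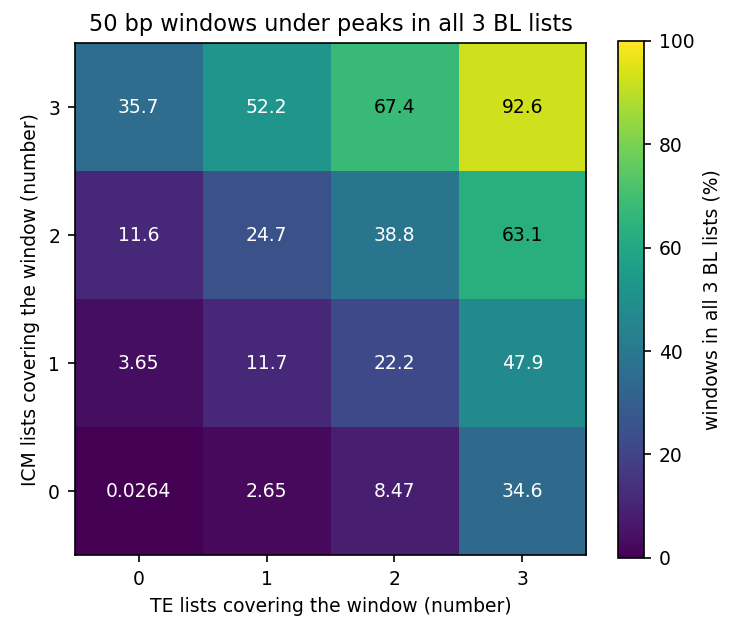
Share (%) of 50 bp windows under peaks in all 3 BL lists, by the number of TE lists (horizontal axis) and ICM lists (vertical axis) that cover them. The values rise from 0.0264% with no lineage list to 92.6% with all 6, and the corners of 3 lists of a single lineage stand at 35.7% and 34.6%.

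Read from the blastocyst side, most of its reproducible open chromatin was shared. The windows under peaks in all 3 BL lists added up to 63.2 Mb. Of that length 56.2% was common to all 6 lineage lists, 5.91% was ICM-only and 5.64% TE-only. A further 31.3% lay in some but not all lists of either or both lineages. The length in no lineage list was 0.973%.

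Many single-lineage stretches lay directly beside a peak of the other lineage. Of the ICM-only stretches 36.5%, and of the TE-only stretches 52.4%, adjoined such a peak, with a median length of 100 bp in both classes. Of the adjoining stretches 36.4% (ICM-only) and 28.8% (TE-only) were found in all BL lists. Stretches at least 1 kb from any peak of the other lineage, called separate sites below, numbered 17204 for ICM, with a median of 350 bp, and 12218 for TE, with a median of 400 bp. At separate sites the TE-only share in all BL lists was 39.5% and the ICM-only share 35.3%. That order depended on the setting. The shares were 22.6% and 22.4%, nearly equal, with all lists shortened from their lowest scores to the length of the shortest. They were 55.2% and 55.9% at sites of at least 500 bp, and 6.38% and 10.2% when every base had to be covered. They were 31.1% and 36.2% without TE replicate 1, 33.8% and 36.4% without TE replicate 2, and 33.8% and 37.3% without TE replicate 3. Without ICM replicate 1, 2 or 3 TE-only stayed higher, at 41.4% against 31.2%, 40.4% against 30.3% and 41.0% against 31.1%. With 1 ICM and 1 TE library left out together, TE-only was higher in every pairing. The shares were 34.8% and 31.4% without replicate 2 of both lineages, and 32.6% and 32.0% without ICM replicate 3 and TE replicate 1.

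In the full lists, separate sites of the ICM were more often without any base under a BL peak. BL peaks touched no base of 20.9% of the separate ICM-only sites and of 10.4% of the separate TE-only sites. These 2 shares were not recomputed with libraries left out or lists shortened, so whether their order holds was not tested. The ICM-only sites were found at 55.6%, 48.8% and 68.0% in BL replicates 1, 2 and 3, and the TE-only sites at 56.2%, 61.2% and 77.6%. TE-only exceeded ICM-only by 0.633, 12.4 and 9.53 points, so all 3 libraries lay on the same side, BL replicate 1 only barely. The mean of 7.51 points (SD 6.13, n = 3) had an exact sign-flip permutation p of 0.25, the smallest that 3 libraries allow, so the test could not pass 0.05. The share in all BL lists was higher for TE-only on 28 of the 29 autosomes, chromosome 16 being the exception, whereas over all single-lineage stretches ICM-only was higher on 23 of 29. Chromosomes of the same libraries are not replicates. The direction depended on the libraries and on the definition of found: the mean was -1.49 without TE replicate 1, 0.60 to 0.78 without TE replicate 3 or 2, 13.0 to 13.8 without any 1 ICM library, 5.08 without BL replicate 2, and -3.32 when every base of a site had to be covered. It was 3.42 with the lists shortened to a single length, 2.54 at sites of at least 500 bp and 4.67 with sites weighted by length. With both lineages at 2 lists it was 4.24 to 7.01.

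Higher-scoring and longer separate sites were found more often, in both lineages. The peak lists give a whole number per peak, the authors' score, whose meaning was not settled; it was used only to rank peaks within a list, and each site was given the mean percentile of its peaks in the 3 lists of its own lineage. Of ICM-only sites, 12.1% were found in all BL lists at percentiles 0 to 20 and 81.8% at percentiles 80 to 100. The TE-only sites went from 15.7% to 75.9% over the same range. Over all stretches, adjoining ones included, the increase levelled off: ICM-only stretches were at 47.0% at percentiles 60 to 80 and 46.5% at 80 to 100, and TE-only stretches at 38.9% and 39.0%. Conversely, 43.0% of the lowest-ranked ICM-only sites and 26.4% of the lowest-ranked TE-only sites had no base in any BL list, against 0.281% and 0.517% of the highest-ranked. ICM-only sites over 1000 bp were found in all BL lists in 74.2% of 337 cases, and TE-only sites of that length in 63.8% of 505. At 350 to 500 bp the shares were 37.7% and 39.3%. The TE-only share was thus above the ICM-only share at percentiles 0 to 80 and below it in the top bin.

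**Figure D3:**
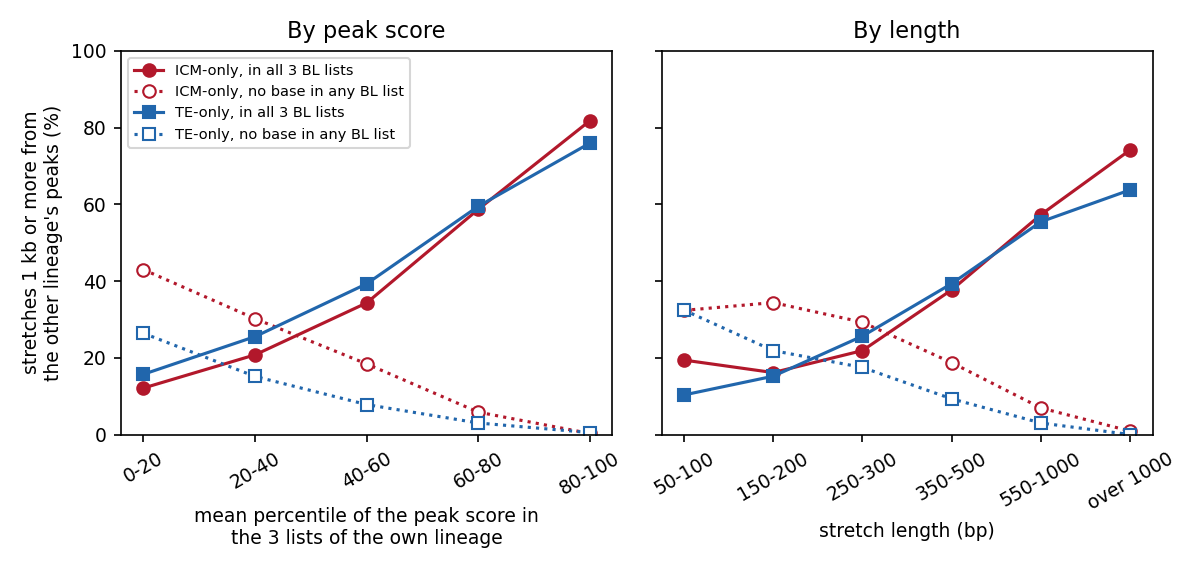
Separate single-lineage sites (%) by the mean percentile of their peak score (left) and by length in bp (right). Filled symbols and solid lines give sites found in all 3 BL lists, open symbols and dotted lines sites with no base in any BL list; the solid lines rise to 81.8% (ICM-only) and 75.9% (TE-only) at the highest scores.

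Separate sites with H3K27ac in their own lineage had near-equal ICM-only and TE-only shares in whole-blastocyst ATAC-seq and far apart ones in whole-blastocyst H3K27ac. Marks were read at the middle window of each site. H3K27ac of both ICM libraries and of no TE library was present at 5531 separate ICM-only sites, 32.1% of them, and the reverse pattern at 3643 separate TE-only sites, 29.8%. In ATAC-seq, 47.8% of the ICM-only and 48.2% of the TE-only sites were found in all 3 BL lists. The ICM-only sites were at 65.6%, 61.3% and 79.7% in BL replicates 1, 2 and 3, and the TE-only sites at 62.4%, 67.3% and 83.6%. BL replicate 1 was higher for ICM and the other two for TE. The ATAC difference of 0.39 points was -6.22 to -4.16 without any 1 TE library and 4.46 to 5.90 without any 1 ICM library, and it was 5.12 without BL replicate 1 and -2.27 without BL replicate 2. The H3K27ac libraries of whole blastocysts divided the same sites sharply. Both held the mark at 12.4% of the ICM-only and 54.4% of the TE-only sites. BL H3K27ac replicate 1 held it at 16.1% of the ICM-only and 58.3% of the TE-only sites, and replicate 2 at 19.8% and 69.4%. Both libraries therefore lay far higher at TE-only sites, by 42.2 and 49.6 points; no test was run on 2 libraries.

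The length of the H3K27ac lists moved with that gap. The ICM lists of H3K27ac covered 98.2 and 91.3 Mb of the autosomes, the TE lists 57.5 and 60.3 Mb, and the BL lists 49.0 and 55.1 Mb. All 6 lists were then shortened from their lowest scores to the length of the shortest, and the sites were chosen again from the shortened lists. At this changed set of sites, whose number was not recorded, the BL libraries both held the mark at 33.0% (ICM-only) and 63.6% (TE-only). The difference was then 30.6 points in place of 42.0, and the ATAC shares were 54.7% and 49.1%. Leaving out 1 ATAC or 1 H3K27ac library put the H3K27ac difference between 31.1 and 49.6 points, the lowest without TE H3K27ac replicate 1. Where the library left out was of the ICM or TE, the sites were also chosen again. Separate sites with H3K27ac in neither lineage were found in all BL ATAC lists less often, at 26.2% of 8729 ICM-only and 33.2% of 5510 TE-only sites. They also had lower median score percentiles than sites with H3K27ac of their own lineage only, 39.1 against 55.6 (ICM-only) and 36.4 against 59.4 (TE-only). Their median lengths were 350 against 400 bp and 350 against 500 bp. The part of score and length in the lower shares was not tested.

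**Figure D4:**
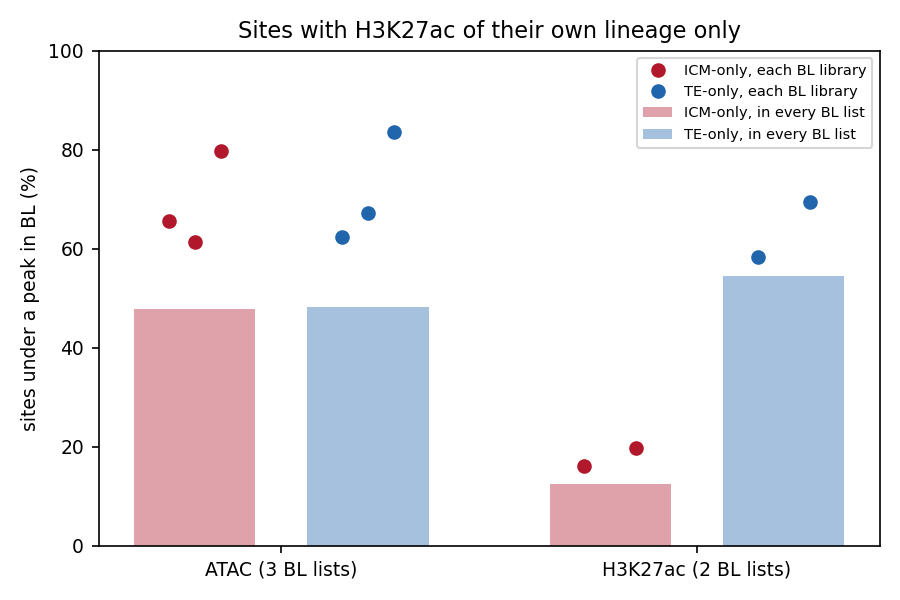
Share (%) of separate single-lineage sites with H3K27ac of their own lineage only that lie under a BL peak of ATAC-seq (left pair) or of H3K27ac (right pair). Bars give presence in every BL list and points each BL library; the ATAC bars stand at 47.8% and 48.2%, and the H3K27ac bars at 12.4% (ICM-only) and 54.4% (TE-only).

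The other stages gave the same sites a different standing. Over all separate ICM-only sites, H3K27ac was present at 44.9% and 39.6% in the ICM libraries, at 7.85% and 9.46% in the BL libraries, and at 46.5% and 41.6% in the libraries of morulae, the stage before the lineages form a blastocyst. Over all separate TE-only sites it was at 44.0% and 47.5% in TE, 28.3% and 35.2% in BL, and 25.4% and 18.8% in morulae. At ICM-only sites the morula lists thus lay near those of the ICM and far above BL, and at TE-only sites the morula lists lay below those of BL. The morula and ICM lists are also the longer ones: over all autosomal windows H3K27ac covered 4.63% and 4.53% in morulae, 3.95% and 3.67% in ICM, 1.97% and 2.21% in BL and 2.31% and 2.42% in TE. BL libraries held H3K4me3 at 1.73% and 2.33% of the separate ICM-only sites, close to the 1.86% and 2.03% of all autosomal windows, and at 8.35% and 10.4% of the separate TE-only sites, above that background. Morula libraries held it at 4.27% and 5.10% of the ICM-only sites, against 1.74% and 1.93% of all windows, and at 1.28% and 1.74% of the TE-only sites. In the lineages' own libraries it was at 2.05% and 2.03% (ICM at ICM-only sites) and at 9.52% and 7.05% (TE at TE-only sites).

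Separate sites missing from whole blastocysts carried less of the active marks. Of the 6069 separate ICM-only sites found in all BL lists, 58.0% and 51.9% carried H3K27ac in the ICM libraries, against 26.4% and 23.5% of the 3594 sites with no base in any BL list. Of the 4831 separate TE-only sites found in all BL lists, 51.3% and 55.9% carried it in the TE libraries, against 31.9% and 35.2% of the 1265 missing sites. H3K27me3 of BL was also higher at the found sites, at 17.6% and 17.0% against 12.4% and 12.4% for ICM-only, and at 12.9% and 12.3% against 6.72% and 6.17% for TE-only. This link was uneven between BL ATAC libraries. Over all ICM-only stretches, those with H3K27me3 in both BL libraries were found at 56.1%, 68.3% and 78.2% in BL replicates 1, 2 and 3. Those with it in neither were at 53.1%, 52.8% and 70.1%. For all TE-only stretches the shares were 48.9%, 75.8% and 79.1% against 47.5%, 59.9% and 73.9%. Replicate 1 thus showed little difference and replicate 2 the largest. Found sites also had higher peak scores and greater lengths, as given above, whose part in these mark differences was not tested.

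Open chromatin listed in whole blastocysts alone was sparse and made of short pieces. There were 4134 stretches in all 3 BL lists and in no ICM or TE list, covering 0.615 Mb with a median length of 100 bp; none was longer than 750 bp. These windows were 0.334% of the windows in at least 1 of the 9 lists. The same count made for the ICM, all 3 ICM lists and no BL or TE list, gave 11117 stretches (2.05 Mb, 1.11% of the windows). For the TE it gave 10805 stretches (1.44 Mb, 0.782% of the windows). Of the BL-only stretches 2943, or 71.2%, directly adjoined an ICM or TE peak, and 699, or 16.9%, lay at least 1 kb from any. Those 699 had a median length of 300 bp and a median score percentile of 26.1 in the BL lists. Leaving out any library loosens the rule, so the windows that qualify can only become more. The count rose most without BL replicate 1, to 17243 stretches, against 7906 without BL replicate 2 and 7461 without BL replicate 3. Without ICM replicate 2 it was 6953 and without TE replicate 2 it was 6236, while the other lineage libraries gave 5081 to 5224. With all lists shortened to a single covered length it was 1974.

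BL-only stretches carried more H3K27me3 of BL and less of its active marks than common ones. Their middle window lay under H3K27me3 peaks of the BL libraries in 32.3% and 31.9% of cases, against 18.7% and 18.6% of the common stretches found in all BL lists and 10.9% and 11.3% of all autosomal windows. The ICM and TE lists of H3K27me3, from lineages whose ATAC lists have no peak there, gave 26.4% and 25.9% (ICM) and 32.6% and 32.1% (TE). The 699 stretches at least 1 kb from lineage peaks were at 31.9% and 31.8% in BL. BL H3K27ac was at 7.91% and 8.68% of BL-only stretches, at 46.2% and 50.4% of the common ones and at 1.97% and 2.21% of all windows. The longer H3K27ac lists of other stages were higher at BL-only stretches, at 25.9% and 22.7% in ICM and 27.4% and 24.9% in morulae, and the TE lists were at 9.39% and 9.68%. BL H3K4me3 was at 8.47% and 10.3%, against 49.1% and 52.8% of the common ones and 1.86% and 2.03% of all windows, and BL H3K9me3 at 11.2% and 14.9%, against 5.58% and 7.64% of the common ones and 4.03% and 5.38% of all windows. The H3K27me3 excess of 13.5 points, a mean over the 2 BL libraries, was 7.45 points without BL ATAC replicate 2 and 20.5 points with the ATAC lists shortened to a single length. By the same reading, stretches of the ICM without BL or TE were at 12.3% and 12.2% for H3K27me3 in BL, and those of the TE without BL or ICM at 7.82% and 7.48%.

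The marks differed with how widely a site was shared. Within the windows under peaks in all 3 BL ATAC lists, H3K27me3 of BL covered 33.7% and 33.5% where no lineage list held the window. It was nearly as high with 1 lineage list, at 30.0% and 29.5%. The shares were 25.7% and 25.3% with 2 lineage lists, 18.8% and 18.1% with 3, 21.6% and 21.3% with 5 and 16.4% and 16.3% with all 6. The fall was therefore not even: windows in 3 lists lay below those in 4 and 5. H3K4me3 rose from 7.01% and 8.49% with no lineage list to 34.9% and 38.9% with 5 and 63.5% and 66.8% with 6. H3K27ac rose from 6.95% and 7.96% to 33.8% and 37.0% and then 53.7% and 57.4%. H3K9me3 was at 12.3% and 15.5% with no lineage list and at 4.72% and 6.52% with 6, with 7.35% and 10.2% at 3 lists and 7.52% and 10.2% at 4.

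**Figure D5:**
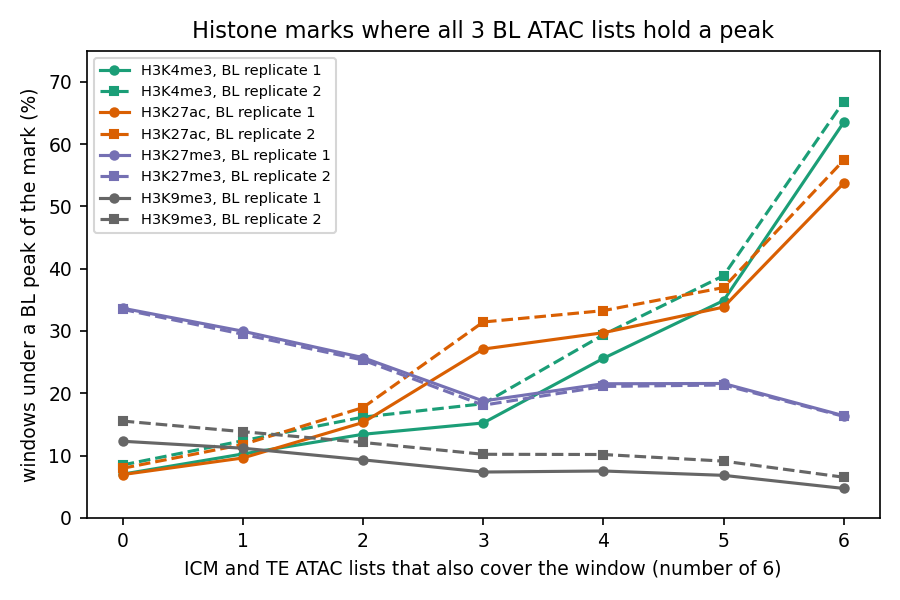
Share (%) of the windows under peaks in all 3 BL ATAC lists that lie under a BL peak of each histone mark, by how many of the 6 lineage ATAC lists also cover the window. Circles with solid lines are BL replicate 1 and squares with dashed lines BL replicate 2 of each mark; H3K4me3 reaches 63.5% and 66.8% at 6 lists, and H3K27me3 is highest, at 33.7% and 33.5%, at none.

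Single regions, the longest of each kind, are extremes of their classes and not typical members. The longest common stretch was chr5:26529801-26539700 (9900 bp), covered over 96.0%, 94.9% and 100% of its length in the BL lists, with H3K27ac at its middle in both ICM libraries and in no BL, TE or morula library. The next were chr16:821951-829800 (7850 bp) and chr27:6219451-6226000 (6550 bp), which carried all 4 marks in every library of every stage read and had scores of 6611 to 19149 in the 9 ATAC lists, against 1287 to 3736 at the first. Most common stretches were unlike these: their median length was 450 bp, and BL H3K9me3 was at 5.44% and 7.44% of them.

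The longest ICM-only stretch found in all BL lists was chr5:27956951-27959550 (2600 bp), at 86.5%, 96.2% and 100% of its length in BL. It carried H3K27ac in both ICM and both morula libraries, in 1 BL library and in no TE library, and H3K27me3 in both libraries of BL, ICM and TE and in 1 of morula. The second, chr9:54206201-54208550 (2350 bp), carried H3K27ac in both libraries of ICM, BL and morula and in none of TE. The longest ICM-only stretch with no base in any BL list was chr19:21846001-21848300 (2300 bp), 18600 bp from the nearest TE peak, with ATAC scores of 203, 402 and 194 in ICM. It carried H3K27ac in both morula libraries and in none of BL, ICM or TE. The next missing one, chr15:53883201-53884350 (1150 bp), carried H3K27ac in both ICM libraries and in none of BL.

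The longest TE-only stretches found in all BL lists adjoined ICM peaks. The first, chr29:40381951-40385700 (3750 bp), was covered over 56.0%, 88.0% and 86.7% of its length in BL and carried none of the 4 marks at its middle. The third, chr5:27047951-27051600 (3650 bp), carried H3K4me3 and H3K27ac in both libraries of BL and of TE and in none of ICM or morula. The longest TE-only stretch with no base in BL, chr18:65687151-65688250 (1100 bp), lay 150 bp from an ICM peak. It carried H3K27ac in both BL and both morula libraries and in none of ICM or TE. The next, chr6:45189401-45190400 (1000 bp) and chr3:115090901-115091800 (900 bp), carried H3K27ac in both TE libraries and in none of BL or ICM.

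The longest BL-only stretches, each 750 bp, differed from each other. At chr3:16492901-16493650, 1600 bp from the nearest lineage peak, no mark was present apart from H3K27ac in 1 ICM library. The stretch chr11:99219651-99220400 adjoined a lineage peak and lay in BL peaks with scores of 56, 429 and 780, replicate 1 being the lowest. The stretch chr22:14988001-14988750 was 9200 bp from any lineage peak and carried H3K27me3 in both libraries of morula, BL, ICM and TE, and H3K9me3 in both BL and both TE libraries. At chr13:69992301-69993000 (700 bp), the next in length among those at least 1 kb away, H3K27me3 was present in both libraries of BL, ICM and TE and in 1 of morula. It also carried H3K27ac in both morula libraries and in none of BL, ICM or TE, and H3K9me3 in 1 ICM and 1 TE library.

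The common share varied little between autosomes, and the single-lineage shares varied more. Common stretches were found in all BL lists at 91.0% (chromosome 25) to 94.4% (chromosome 7), with a median of 93.0% over chromosomes. ICM-only stretches ranged from 29.6% on chromosome 25 to 40.1% on chromosome 28, and TE-only stretches from 27.1% on chromosome 25 to 38.3% on chromosome 4. Chromosome 25 was thus lowest for all 3 classes. BL-only stretches were densest on chromosome 18, with 26.4 in 10 Mb, and sparsest on chromosome 9, with 10.4 in 10 Mb, around a median of 16.5.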

How the data were processed

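Each deposited file holds the peaks of a single library, which the authors called without pooling replicates. The submitters' processing notes name, in no stated order, BWA 0.7.9a, cutadapt 1.8.3, Picard 2.26.10, SAMtools 1.9, SICER, Trim Galore 0.4.0 and the build ARS-UCD1.2. The lists' own names point to epic2, so the caller was not settled, and no cutoff is stated in the sources used here. The deposited score is a whole number per peak of unsettled meaning, used to rank and trim peaks within a list. Peaks were laid on a 50 bp grid; coordinates are 1-based. Groups came from sample titles. Covered lengths and shares were compared with exact permutation and sign-flip tests (Python 3.11.15, NumPy 2.4.6, pandas 2.3.3), checked on simulated lists. Named regions are the 3 longest stretches of each kind, of which examples are given. The sites and classes were chosen with earlier results of these data known; the 1 kb separation, the H3K27ac pattern and the H3K27me3 comparison were added after seeing the data. No 2 of the 9 ATAC lists were identical. Alternatives covered thresholds, lengths, trimming, joining, chromosomes and left-out libraries.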

Additional observations from a re-analysis of the deposited data

How the results depend on the processing

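Depth is unknown, so a site missing from a list was not detected there rather than shown to be closed. The common share stayed above both single-lineage shares in every alternative run, and the H3K27ac difference and the H3K27me3 excess kept their sign in all of theirs. Which lineage was better represented did not hold.

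When every base had to be found, 64.9% of common, 15.4% of ICM-only and 12.3% of TE-only stretches were in all BL lists; the mean TE-only minus ICM-only difference was -1.94 points, or -3.32 at separate sites, and there -8.52 and -4.52 in BL replicates 1 and 3, with -2.08 in replicate 3 over all stretches. With any base counted as found, the difference of the shares in all BL lists was 0.0418 points, against -2.58 as reported. At a minimum of 200 bp it was 1.58 points, with 1294 BL-only stretches. At 500 bp the shares were 98.9%, 56.4% and 52.9%, with 72 BL-only stretches. With the 50% highest-scoring peaks they were 95.6% for common, with 2351 BL-only stretches and a mean difference of -0.11 points. Trimming to a single length gave 90.1% and 1974, and a minimum distance of 1 kb left 699. At separate sites BL replicate 1 turned to -2.00 (weighted by length), -4.96 (500 bp), -2.86 (top 50%) and -0.319 points (trimmed). Trimmed H3K27ac lists gave a difference of 30.6 points, at sites chosen again from those lists.

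Leaving out libraries gave these ranges: 0.072 to 0.34 for the log2 covered length; -5.46 to 1.58 points for TE minus ICM library length in BL; 90.0% to 96.1% for common, 29.1% to 48.4% for ICM-only and 24.5% to 52.1% for TE-only; -13.6 to 6.31 points for the difference of the shares in all BL lists; 5081 to 17243 BL-only stretches; -9.79 to 9.43 points for the mean difference and -1.49 to 13.8 points at separate sites; 31.1 to 49.6 points for H3K27ac. The differences in BL replicates 1, 2 and 3 ranged from -17.4 to 3.96, -3.68 to 15.2 and -8.54 to 11.1 points, and at separate sites replicate 1 ranged from -8.44 to 7.22. Leaving out 1 ICM and 1 TE library together, the 500 bp and 5 kb distances, and the alternatives for H3K27ac and H3K27me3 were chosen after seeing the data.

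Whether replicate numbers pair the libraries was not settled. Covered length was greatest in replicate 2 of both ICM and TE, and in replicate 3 of BL. Same-numbered libraries of different groups had correlations of -0.159 to 0.0858 in their deviations from the group means (9 pairs), the others -0.231 to 0.198 (18 pairs), and the best match had the same number in 9 of 18 cases. With a replicate block the log2 difference in covered length stayed 0.19, with an exact sign-flip permutation p of 0.5. TE minus ICM library length in BL stayed -1.83 points, with an exact sign-flip permutation p of 0.25. The smallest p that either blocked test allows is 0.25, so neither could pass 0.05. These tests therefore cannot show whether pairing the libraries would change either result.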
